A study of Mus musculus with 12 samples.

Results

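The guanylate-binding proteins (GBPs) and the immunity-related GTPases (IRGs) are 2 families of GTPases that interferons induce. The 10 genes described here are Gbp2, Gbp3, Gbp4, Gbp5, Gbp7, Gbp9, Igtp, Irgm1, Irgm2 and Iigp1, taken by mouse symbol from the 36491 rows of the deposited count table. All 10 passed the filter on low counts, which 18875 rows passed. They were measured by RNA-seq in CD11b-bead-enriched brain cells, labelled microglia, of male wild-type C57BL/6J mice aged 6 months. Every mouse had a bone marrow transplant, then food with PLX5622 for 2 weeks and standard chow for 6 weeks. PLX5622 inhibits the CSF1 receptor and depletes microglia. Unshielded mice were transplanted without a head shield, so that the irradiation reached the brain, and shielded mice with one. Mice of either kind then received 50 µg of lipopolysaccharide (LPS) or saline into the peritoneum, and cells were taken 6 hours later. LPS is a bacterial outer membrane lipid that activates Toll-like receptor 4. The groups were unshielded mice with LPS, unshielded mice without LPS, shielded mice with LPS and shielded mice without LPS, with 3 libraries in each.

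GBPs are large GTPases of the dynamin family that assemble on bacteria and on the vacuoles around intracellular pathogens. On bacteria they expose LPS to caspase-11, the cytosolic LPS sensor encoded by Casp4 in the mouse. Among the IRGs, Irgm1, Irgm2 and Igtp (also called Irgm3) are regulators that sit on the cell's own membranes and keep the effector IRGs, such as Iigp1 (Irga6), from attacking them. Interferon acts on both families through transcription factors that bind the GAS and ISRE elements of their promoters. LPS induces type I interferon in macrophages and microglia, and so reaches these genes indirectly as well.

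Library totals ran from 56776710 to 60495968 counts in unshielded LPS mice, 18090977 to 40792878 in unshielded mice without LPS, 29794946 to 40730784 in shielded LPS mice and 28770354 to 42931839 in shielded mice without LPS. Groups follow the sample titles. For shielded libraries 2 and 3 without LPS the treatment field names LPS, which goes against their titles. The shielded LPS libraries had 202 to 352 CPM (read counts scaled to library size) of Gbp2, against 17.9 and 13.6 CPM in these libraries and 16.03 CPM in library 1 of their group. Gbp2 is itself a member, so its level is no independent check of the grouping. Nothing in the labels says whether animals were pooled. All 10 microglia markers were detected in every library, and their summed level was 12792 to 13957 CPM in unshielded LPS mice, 15414 to 18442 in unshielded mice without LPS, 19167 to 22130 in shielded LPS mice and 25375 to 30242 in shielded mice without LPS. The summed level of 7 marrow-derived macrophage markers was 80324 to 105403, 58337 to 88749, 2618 to 4477 and 6813 to 23953 CPM in the same order of groups. Apoe made up nearly all of this sum, with a mean of 91414 CPM in unshielded LPS mice and 3192 CPM in shielded LPS mice, and 72241 CPM in unshielded and 13821 CPM in shielded mice without LPS. Lyve1 of the same list overlapped between all groups. In bulk RNA, fewer cells of a type and less RNA per cell cannot be told apart.

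The promoters of 4 members are shown first, those of Gbp2 and Gbp5, which had the largest LPS responses, and those of the neighbouring genes Igtp and Irgm2, which are much alike in sequence and unlike in response. Each is the RefSeq window from 250 bases before to 50 bases after the annotated start, 5′ to 3′ on the gene's strand, in build GRCm38.p6. Gbp2 lies at chr3:142620413-142620712, Gbp5 at chr3:142496684-142496983, Igtp at chr11:58199306-58199605 and Irgm2 at chr11:58214727-58215026, all on the plus strand. Capitals mark matches to an ISRE-type pattern, GAAANNGAAA or its reverse complement TTTCNNTTTC, and to a GAS-type pattern, TTCNNNGAA, which reads the same on both strands.
Gbp2: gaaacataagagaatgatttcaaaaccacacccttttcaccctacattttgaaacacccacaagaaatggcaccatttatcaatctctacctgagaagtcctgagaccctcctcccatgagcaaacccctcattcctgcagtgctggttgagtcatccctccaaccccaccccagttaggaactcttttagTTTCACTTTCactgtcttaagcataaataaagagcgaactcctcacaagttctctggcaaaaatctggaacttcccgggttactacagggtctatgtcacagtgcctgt
Gbp5: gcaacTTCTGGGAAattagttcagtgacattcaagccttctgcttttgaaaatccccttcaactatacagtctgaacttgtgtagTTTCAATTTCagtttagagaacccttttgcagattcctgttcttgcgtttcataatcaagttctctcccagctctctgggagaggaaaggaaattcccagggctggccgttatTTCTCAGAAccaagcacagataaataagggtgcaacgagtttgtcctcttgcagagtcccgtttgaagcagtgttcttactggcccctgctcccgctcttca
Igtp: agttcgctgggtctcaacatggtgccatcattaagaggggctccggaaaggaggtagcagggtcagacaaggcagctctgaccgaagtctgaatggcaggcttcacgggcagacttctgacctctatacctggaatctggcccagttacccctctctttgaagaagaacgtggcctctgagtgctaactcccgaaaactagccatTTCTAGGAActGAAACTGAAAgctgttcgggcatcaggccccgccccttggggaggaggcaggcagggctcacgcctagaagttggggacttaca
Irgm2: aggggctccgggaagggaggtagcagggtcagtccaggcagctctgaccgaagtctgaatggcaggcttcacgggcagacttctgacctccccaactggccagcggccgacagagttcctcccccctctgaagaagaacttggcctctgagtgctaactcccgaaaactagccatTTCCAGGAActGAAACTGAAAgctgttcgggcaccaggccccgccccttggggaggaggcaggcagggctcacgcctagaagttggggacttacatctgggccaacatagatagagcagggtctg

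The RefSeq table held windows for 7 of the 10 members (Gbp2, Gbp3, Gbp5, Gbp7, Igtp, Irgm1 and Irgm2), with a second start for Gbp3. The ISRE-type pattern was present in a window of each of the 7, against 3.44% of 32851 mouse promoter windows of the same length. The GAS-type pattern was present in Gbp5, Gbp7, Igtp and Irgm2, against 8.3% of all windows. A loose NF-kB-type pattern, GGGNNNNNCC on either strand, was present in 5 of the 7, against 50.8% of all windows. Matches of the ISRE-type pattern overlapped each other in Gbp3 and in Irgm1, and none overlapped a GAS-type match. In Igtp the GAS-type match TTCTAGGAA began at position −45 from the start and the ISRE-type match GAAACTGAAA at −34. In Irgm2 the GAS-type match TTCCAGGAA began at −75 and the same ISRE-type letters at −64. Set 30 bases apart without gaps, these windows were identical at 184 of 270 bases (68.1%), with a longest identical stretch of 61 bases. The best ungapped placement of any other pair of member windows reached 34.9%. A match of letters is a description of the window and not a measured binding site.

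**Figure D1:**
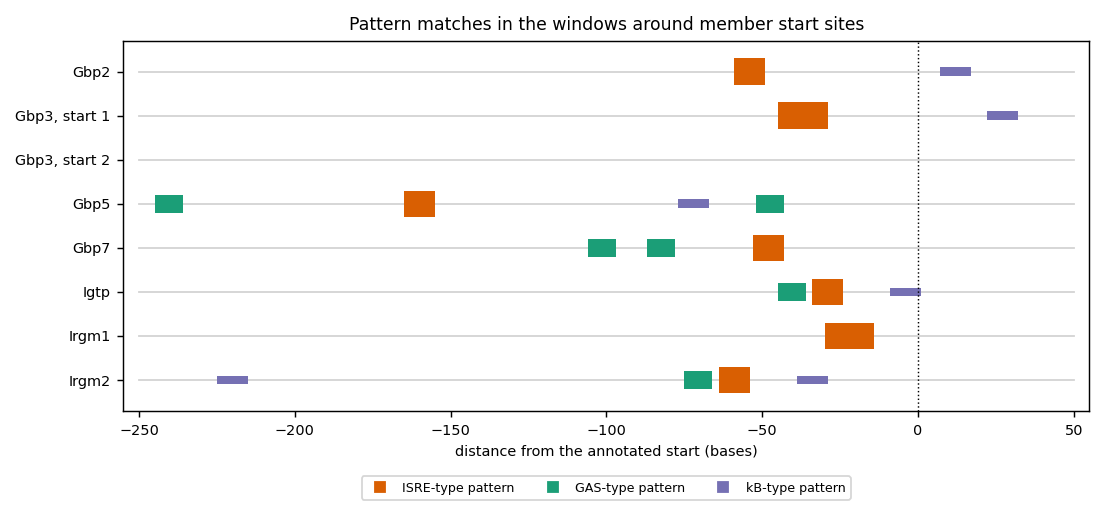
Matches to the ISRE-type, GAS-type and NF-kB-type (kB) patterns in the windows of 7 members, by distance in bases from the annotated start (dotted line), with both starts of Gbp3. ISRE-type matches lie in at least 1 window of each member, 24 to 165 bases before the start, and Igtp and Irgm2 hold a GAS-type and an ISRE-type match in the same order.

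LPS raised 9 of the 10 members in unshielded mice and the same 9 in shielded mice, and Irgm2 was the exception in both. None fell. Among all genes tested, 24.3% were called higher and 18.8% lower with LPS in unshielded mice, 43.1% in all. In shielded mice 32.4% were called higher and 35.1% lower, 67.5% in all. The members' median log2 fold change was 1.70 in unshielded mice, beside −0.06 over all genes tested, and 2.05 in shielded mice, beside −0.14 over all genes tested. In each of the 9 the 3 LPS libraries lay above all 3 libraries without LPS, in both kinds of mice, as was so for 29.6% of all genes in unshielded mice and 34.1% in shielded mice. Calls are at a Benjamini-Hochberg adjusted p under 0.05 in edgeR's quasi-likelihood test, and fold changes are given with their standard error (SE).

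The GBPs of chromosome 3 include the strongest responders. Gbp2, a prenylated GBP that coats bacteria and pathogen vacuoles, had 123, 144 and 175 CPM in unshielded LPS libraries, against 9.78, 11.03 and 20.7 CPM in unshielded libraries without LPS. In shielded mice it had 352, 210.1 and 202 CPM with LPS, against 16.03, 17.9 and 13.6 CPM without. Shielded LPS library 1 stood well above the others of its group. The log2 fold change was 3.41 ± 0.31 in unshielded mice (10.6-fold, adjusted p = 9.89e-06) and 4.01 ± 0.32 in shielded mice (16.1-fold, adjusted p = 1.25e-06), the largest of any member in both. Gbp5, also prenylated and known in the mouse to promote assembly of the NLRP3 inflammasome, had 101, 146 and 196 CPM in unshielded LPS libraries, against 21.1, 20.1 and 28.2 CPM without LPS. In shielded mice its level was 385, 248 and 189 CPM with LPS, against 25.9, 27.2 and 20.4 CPM without. Its log2 fold change was 2.67 ± 0.30 in unshielded mice (adjusted p = 3.73e-05) and 3.48 ± 0.31 in shielded mice (adjusted p = 2.62e-06).

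Gbp3 and Gbp7, from the same cluster, had smaller fold changes. Gbp3 had 111, 128 and 154 CPM in unshielded LPS libraries, against 40.7, 36.3 and 43.7 CPM without LPS. Its shielded libraries had 143, 129.9 and 120.4 CPM with LPS, against 36.4, 33.3 and 28.4 CPM without. The change was 1.70 ± 0.13 in unshielded mice (adjusted p = 1.19e-06) and 2.00 ± 0.13 in shielded mice (adjusted p = 1.25e-07). Gbp7, linked in the mouse to the delivery of NADPH oxidase and autophagy components to bacterial vacuoles, had 121, 133 and 139.8 CPM in unshielded LPS libraries, against 39.7, 42.7 and 39.1 CPM without. In shielded mice it was at 218, 188 and 173 CPM with LPS, against 49.3, 47.2 and 38.9 CPM without. Its log2 fold change of 1.70 ± 0.11 in unshielded mice (adjusted p = 4.25e-07) stood beside 2.10 ± 0.11 in shielded mice (adjusted p = 3.35e-08). Of the 50-base windows of Gbp7's annotated exons 12.7% also occurred in another gene, mostly the overlapping gene Gm43802.

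Gbp4 and Gbp9 belong to the chromosome 5 cluster. Gbp4 had 25.3, 20.1 and 32.0 CPM in unshielded LPS libraries, against 6.80, 7.03 and 13.0 CPM without LPS. The shielded libraries had 36.4, 34.9 and 34.6 CPM with LPS, against 6.19, 8.34 and 5.63 CPM without. Gbp4 rose by 1.52 ± 0.25 in unshielded mice (adjusted p = 0.000485) and by 2.40 ± 0.26 in shielded mice (adjusted p = 8.92e-06). Gbp9 had 77.9, 94.0 and 100.4 CPM in unshielded LPS libraries, against 34.3, 37.4 and 38.9 CPM without. In shielded mice it reached 62.5, 57.2 and 51.2 CPM with LPS, against 35.2, 38.1 and 28.8 CPM without. Its rise was 1.30 ± 0.12 in unshielded mice (adjusted p = 5.41e-06) and 0.74 ± 0.12 in shielded mice (adjusted p = 0.000206), and it was the smallest called rise among the members in shielded mice. Gbp4, Gbp8 and Gbp9 share exon bases on one strand in GENCODE M21, so their counts are uncertain.

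**Figure D2:**
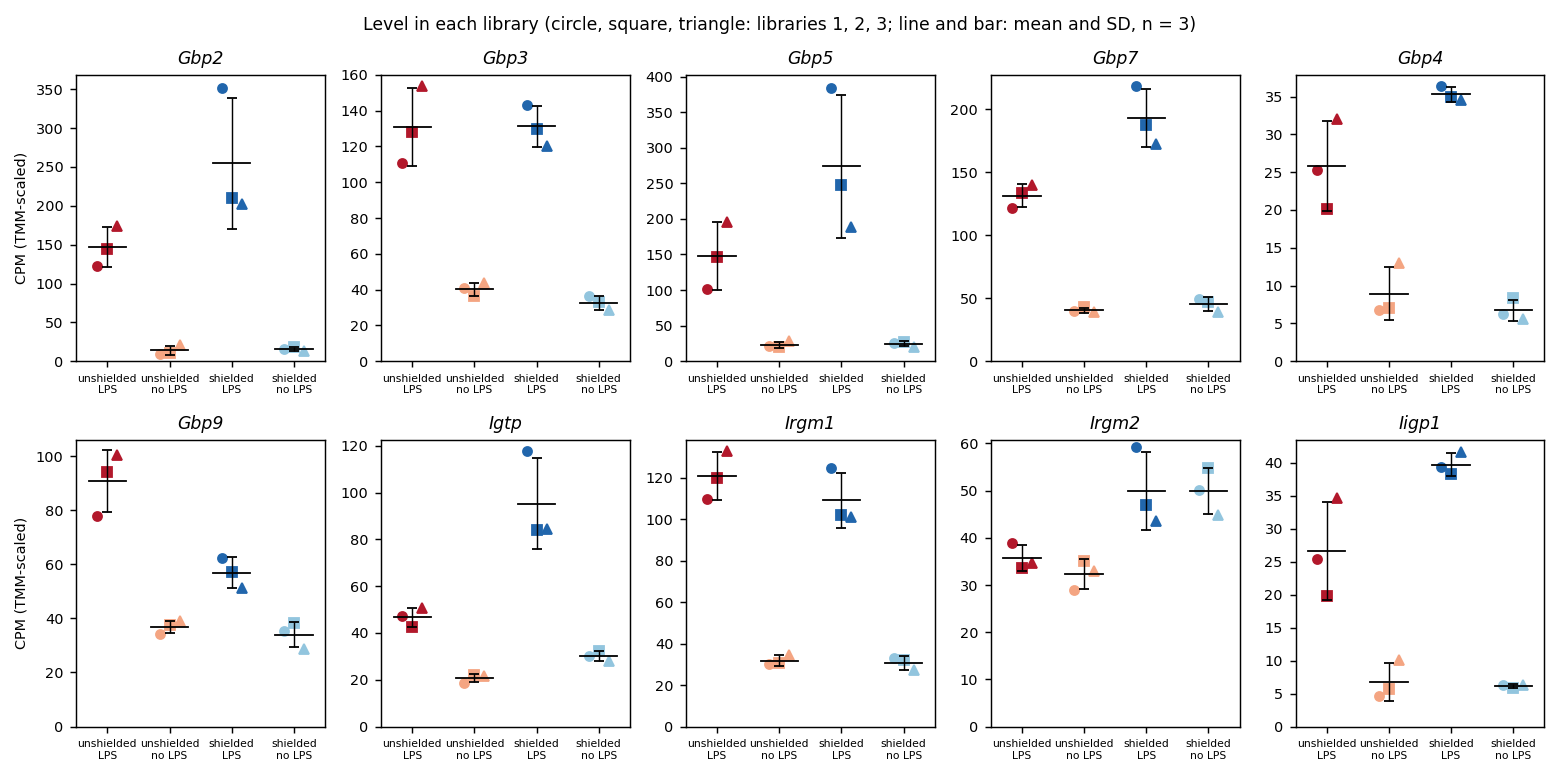
CPM of each member in every library (linear axis from 0, circle, square and triangle for libraries 1, 2 and 3), with the mean and SD of each group of 3. In 9 panels the LPS libraries lie above those without LPS, and in the panel of Irgm2, where levels run from 29.0 to 59.3 CPM, they overlap.

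The regulatory IRGs, all on chromosome 11, split between 2 that rose with LPS and 1 that did not pass the test. Irgm1, which in the mouse protects macrophages and acts on lysosomes and mitochondria, had 109.7, 120.1 and 133 CPM in unshielded LPS libraries, against 30.01, 30.6 and 34.7 CPM without LPS. Its shielded libraries were at 125, 102 and 101 CPM with LPS, against 32.9, 32.2 and 27.1 CPM without. The rise was 1.93 ± 0.12 in unshielded mice (adjusted p = 2.11e-07) and 1.83 ± 0.12 in shielded mice (adjusted p = 8.72e-08). Igtp, a regulator on the endoplasmic reticulum and lipid droplets, had 47.3, 42.4 and 50.5 CPM in unshielded LPS libraries, against 18.7, 22.1 and 21.5 CPM without. In shielded mice it had 118, 83.9 and 84.3 CPM with LPS, against 30.2, 32.2 and 27.9 CPM without. Igtp rose by 1.17 ± 0.13 in unshielded mice (adjusted p = 1.94e-05) and by 1.66 ± 0.13 in shielded mice (adjusted p = 4.27e-07).

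Irgm2, a Golgi-associated regulator that in the mouse restrains caspase-11 responses to LPS, had 38.8, 33.5 and 34.6 CPM in unshielded LPS libraries, against 29.0, 35.1 and 33.0 CPM without LPS. In shielded mice the levels were 59.3, 47.0 and 43.6 CPM with LPS, against 50.1, 54.8 and 44.9 CPM without. The LPS groups overlapped those without LPS in both kinds of mice. The log2 fold change was 0.14 ± 0.12 in unshielded mice (adjusted p = 0.364) and 0.00 ± 0.12 in shielded mice (adjusted p = 0.989). Scaled to library totals in place of TMM factors, the median of all genes stood at −0.36 in unshielded mice and −0.49 in shielded mice, the split of calls was 2656 higher and 6520 lower in unshielded mice and 4042 higher and 9131 lower in shielded mice, and Irgm2 was called lower in shielded mice (−0.35, adjusted p = 0.023). With TMM the splits were 4585 higher and 3543 lower, and 6119 higher and 6619 lower. The 9 rises were called under both scalings. Igtp and Irgm2 share exon bases on the same strand, and 11.8% of Igtp's and 7.83% of Irgm2's 50-base exon windows also occurred in another gene, so both counts are uncertain there. The promoter windows printed above hold the same ISRE-type letters for this pair.

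Iigp1 on chromosome 18, the effector IRG that in the mouse loads onto the vacuoles of Toxoplasma and Chlamydia, was lifted in both kinds of mice. It had 25.5, 19.8 and 34.6 CPM in unshielded LPS libraries, against 4.65, 5.68 and 10.1 CPM without LPS. In shielded mice the levels were 39.4, 38.3 and 41.6 CPM with LPS, against 6.29, 5.85 and 6.37 CPM without. It rose by 1.97 ± 0.26 in unshielded mice (adjusted p = 0.000111) and by 2.69 ± 0.27 in shielded mice (adjusted p = 5.07e-06). Without the 2 shielded libraries whose fields conflict, the shielded group without LPS holds 1 library, which is then assumed to vary like the other groups, and 9 members were called higher with LPS in shielded mice. With these libraries grouped by their treatment field as LPS, that group also holds 1 library, and 0 members were called in unshielded mice and 0 in shielded mice. The fold changes stayed above 0 for the 9, as for Gbp2 in unshielded mice (3.38, adjusted p = 0.133) and in shielded mice (3.34, adjusted p = 0.792).

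Markers of other cells moved with LPS as well. The summed level of 9 T and NK cell markers was 6.92 to 7.78 CPM in unshielded LPS mice, against 1.59 to 1.87 CPM without LPS, and 5.98 to 11.3 CPM in shielded LPS mice, against 2.40 to 2.63 CPM without. Cd3e, a defining T cell marker, had no count in any of the 3 shielded LPS libraries, where 3 counts correspond to 0.0904 to 0.119 CPM. The 7 monocyte markers summed to 155 to 239.6 CPM in unshielded LPS mice, against 26.5 to 39.6 CPM without LPS, and to 90.6 to 177 CPM in shielded LPS mice, against 42.0 to 59.4 CPM without. Ccr2, a defining monocyte receptor of this list, fell in both, by 1.05 on the log2 scale in unshielded mice (adjusted p = 0.00157) and by 1.57 in shielded mice (adjusted p = 4.58e-05). The 8 neutrophil markers summed to 251.3 to 913 CPM in unshielded LPS mice, against 54.2 to 139 CPM without, and overlapped between the shielded groups, at 279 to 476 CPM with LPS and 148 to 335 CPM without. Neuron markers (7) ran the other way in shielded mice, at 31.4 to 158.6 CPM with LPS, against 182 to 331 CPM without, and were at 112 to 212 CPM in unshielded LPS mice, against 266 to 305 CPM without. The 7 oligodendrocyte markers, all called lower in shielded mice, summed to 424 to 1319 CPM there with LPS, against 1771 to 2796 CPM without, and to 1054 to 1892 CPM in unshielded LPS mice, against 1766 to 2273 CPM without, where 1 was called lower. The 7 endothelial markers summed to 110 to 168 CPM in unshielded LPS mice, against 232 to 259 CPM without, and to 115 to 141 CPM in shielded LPS mice, against 170 to 283 CPM without. Cldn5, Flt1, Kdr and Tek of this list were called lower in both kinds of mice. Cdh5 rose in both, by 0.76 on the log2 scale in unshielded mice (adjusted p = 0.014) and by 1.03 in shielded mice (adjusted p = 0.00155). The part of these markers in the members' changes was not tested.

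The LPS effects of the 2 kinds of mice were then set against each other. None of the 10 members passed the test of the difference of LPS effects, beside 13.3% of all genes called. DESeq2 and median-of-ratios scaling called 0 of the members. Library totals called 1 (Gbp9, 0.60, adjusted p = 0.0181), as did the fit with no filter on low counts (Gbp9, 0.64, adjusted p = 0.0189). The replicate block, fitted within each kind of mouse, called 2, Gbp9 (0.55, adjusted p = 0.0221) and Gbp4 (−0.84, adjusted p = 0.0329). In the fit without it 4 had an unadjusted p under 0.05. These were Gbp9, whose LPS effect was larger in unshielded mice (difference of log2 fold changes, unshielded minus shielded, 0.56 ± 0.17, adjusted p = 0.0522), and Gbp4 (−0.87 ± 0.35, adjusted p = 0.123), Gbp7 (−0.40 ± 0.16, adjusted p = 0.115) and Igtp (−0.49 ± 0.18, adjusted p = 0.0986), whose effects were smaller there. Irgm1, at 0.10 ± 0.16, and Irgm2, at 0.14 ± 0.17, had the differences closest to 0. With unshielded LPS library 1 left out the test called Gbp9 (0.61, adjusted p = 0.0449), and likewise with shielded library 3 without LPS left out (0.61, adjusted p = 0.0475). Without shielded LPS library 3 it called Gbp5 (−1.08, adjusted p = 0.0484), Gbp7 (−0.53, adjusted p = 0.0187) and Igtp (−0.63, adjusted p = 0.0188).

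After LPS, unshielded and shielded mice differed in 6 members. Gbp2, Gbp5, Gbp7, Igtp and Irgm2 were lower in unshielded LPS mice and Gbp9 was higher. Over all genes tested 25.6% were called lower, 19.1% higher and 44.6% in either direction, and 27.6% had groups that did not overlap with the unshielded one below and 21.8% with it above. The members' median was −0.52, beside 0.07 over all genes tested.

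Igtp differed most, with a mean of 46.7 ± 4.09 CPM in unshielded LPS mice and 95.3 ± 19.3 CPM in shielded LPS mice (SD, n = 3 each). Its log2 difference was −1.03 ± 0.13 (adjusted p = 5.52e-05). Gbp7 averaged 131 ± 9.43 CPM in unshielded LPS mice and 193 ± 23.4 CPM in shielded LPS mice, a difference of −0.55 ± 0.11 (adjusted p = 0.00142). Irgm2 averaged 35.7 ± 2.79 CPM in unshielded LPS mice and 49.97 ± 8.22 CPM in shielded LPS mice, a difference of −0.49 ± 0.12 (adjusted p = 0.00645). In none of these did the libraries of the groups overlap. The same held for Gbp9, the only called member on the other side, with 90.8 ± 11.6 CPM in unshielded LPS mice and 56.9 ± 5.65 CPM in shielded LPS mice (0.67 ± 0.12, adjusted p = 0.000774).

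The calls of the largest LPS responders were less secure. The number of members called after LPS was 6 with median-of-ratios scaling, 5 with library totals (Gbp2 lost, adjusted p = 0.0602), 4 with no filter on low counts (Gbp2 and Gbp5 lost, 0.155 and 0.108), 5 in a fit of these groups alone (Gbp5 lost, 0.0762), 5 without the conflicting libraries and 7 by DESeq2 (Iigp1 gained, 0.0435). Gbp2 averaged 147 ± 26.0 CPM in unshielded LPS mice and 255 ± 84.0 CPM in shielded LPS mice, a difference of −0.79 ± 0.28 (adjusted p = 0.0407). Gbp5 averaged 148 ± 47.2 CPM in unshielded LPS mice and 274 ± 100.2 CPM in shielded LPS mice, a difference of −0.89 ± 0.28 (adjusted p = 0.024), and its groups overlapped. Shielded LPS library 1 had the highest level of both. Without it the differences were −0.53 (adjusted p = 0.151) and −0.60 (adjusted p = 0.088). The Gbp2 call was also lost without unshielded LPS library 1, 2 or 3 (adjusted p = 0.112, 0.104 and 0.0518), without shielded library 2 without LPS (0.0506) and without both conflicting libraries (0.0657). The Gbp5 call was lost without unshielded LPS library 1 or 2 (adjusted p = 0.0683 and 0.0694).

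Iigp1 and Gbp4 did not pass the test although their LPS groups did not overlap. Iigp1 averaged 26.6 ± 7.49 CPM in unshielded LPS mice and 39.8 ± 1.71 CPM in shielded LPS mice (−0.58 ± 0.25, adjusted p = 0.0743). It passed without unshielded LPS library 3 (adjusted p = 0.0282) and without unshielded library 1 or 3 without LPS (0.03 and 0.0101). Gbp4 averaged 25.8 ± 5.98 CPM in unshielded LPS mice and 35.3 ± 0.945 CPM in shielded LPS mice (−0.45 ± 0.24, adjusted p = 0.141), and passed without unshielded library 3 without LPS (0.0316). Gbp3 (−0.00 ± 0.13, adjusted p = 0.981) and Irgm1 (0.15 ± 0.11, adjusted p = 0.29) had overlapping groups.

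Without LPS, 2 members passed the test, Irgm2 and Igtp, both lower in unshielded mice, beside 6.85% of all genes called lower, 3.98% called higher and 10.8% in either direction. Irgm2 averaged 32.4 ± 3.13 CPM in unshielded mice and 49.9 ± 4.95 CPM in shielded mice (−0.63 ± 0.12, adjusted p = 0.00518). Igtp averaged 20.8 ± 1.77 CPM in unshielded mice and 30.1 ± 2.12 CPM in shielded mice (−0.54 ± 0.13, adjusted p = 0.0188). Neither gene's groups overlapped, as was so for 19.4% of all genes with the unshielded group below. Without the 2 conflicting libraries, with 1 shielded library left, the differences were −0.64 for Irgm2 (adjusted p = 0.107) and −0.55 for Igtp (adjusted p = 0.23), about as large but not past the threshold. The Igtp call was also lost without shielded library 1 or 2 without LPS (adjusted p = 0.0621 and 0.0863) or unshielded library 1 or 3 without LPS (0.112 and 0.0687). The other 8 members ranged from −0.19 ± 0.30 for Gbp2 to 0.42 ± 0.25 for Gbp4, with overlapping groups in every case.

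**Figure D3:**
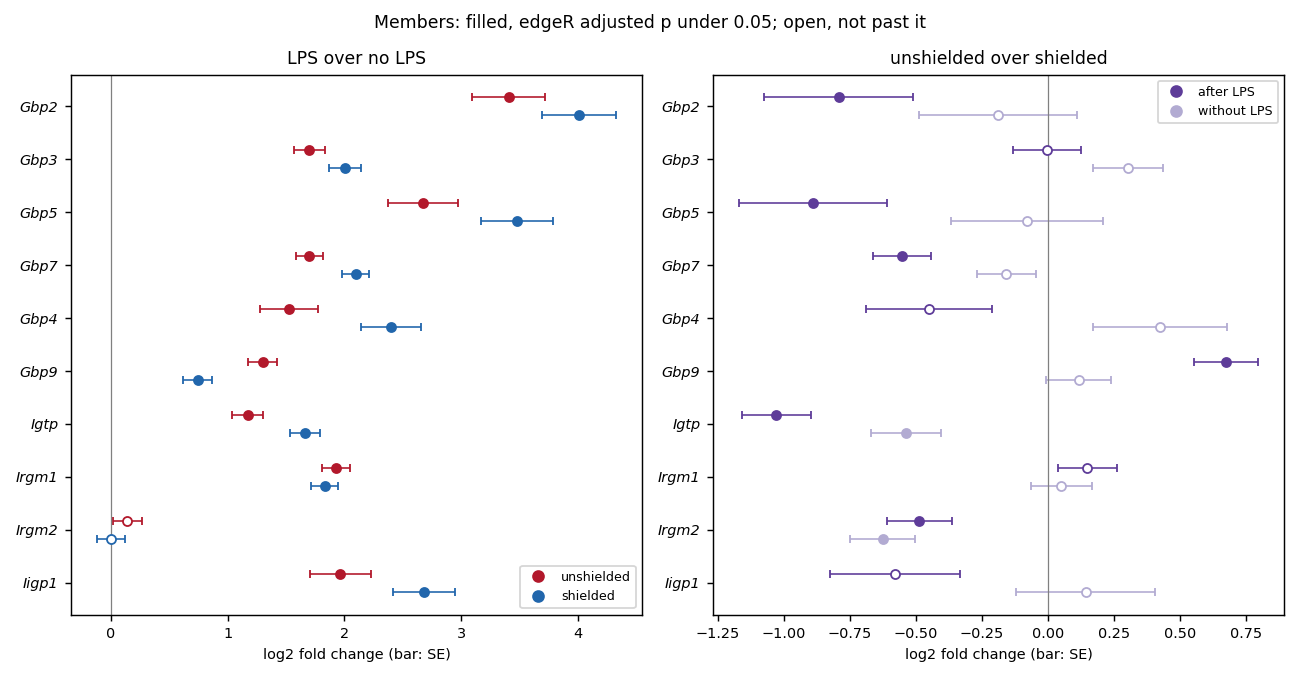
Log2 fold changes of the members with their SE, for LPS over no LPS (left: unshielded above shielded) and for unshielded over shielded (right: after LPS above without LPS). Filled points passed the test. Irgm2 sits near 0 on the left (0.14 and 0.00) and at −0.49 and −0.63 on the right, and Gbp9 is the only filled point above 0 on the right (0.67).

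These differences between unshielded and shielded mice stand beside the marrow-derived macrophage markers given above, of which 6 of 7 were called higher in unshielded mice with LPS and 6 of 7 without. Of the 10 microglia markers 8 were called lower with LPS and 8 without. Neutrophil markers (0 of 8 called after LPS), monocyte markers and T and NK cell markers (0 of 4 tested) did not pass the test after LPS. Without LPS the neutrophil markers Ly6g (−1.81 ± 0.43, adjusted p = 0.0154) and Retnlg (−1.12 ± 0.32, adjusted p = 0.0445) were called lower in unshielded mice. Of the astrocyte markers, Gfap, Slc1a2 and Aldh1l1 were called higher in unshielded mice after LPS and Slc1a3 lower. Of the endothelial markers, Cldn5 (1.22 ± 0.31) and Tek (1.45 ± 0.34) were called higher there after LPS and Kdr (−0.45 ± 0.16) lower. The oligodendrocyte marker Mbp (0.88 ± 0.33) and the neuron marker Slc17a7 (1.54 ± 0.53) were also called higher after LPS. The other endothelial, oligodendrocyte and neuron markers did not pass. The part of the cell makeup in the members' levels was not tested.

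The members' order of level, per kilobase of annotated exons, depended on the group. In unshielded LPS mice Gbp2 led at 58.5 CPM per kb and Gbp3 followed at 40.1, without overlap of their libraries. Gbp7, Igtp, Gbp5 and Irgm1 came next at 23.4, 23.1, 22.3 and 20.8 CPM per kb with overlapping libraries. Gbp9 at 17.6, whose libraries overlapped those of Gbp5 and Irgm1, and Irgm2 at 9.66 followed. Iigp1 at 4.57 and Gbp4 at 3.44 were lowest and overlapped each other. In unshielded mice without LPS Gbp3 led at 12.3 CPM per kb, above Igtp at 10.3 and Irgm2 at 8.77, which overlapped each other. Gbp2 was at 5.50 CPM per kb there, and its libraries, from 3.89 to 8.21, spanned the means of Gbp7 at 7.21, Gbp9 at 7.13 and Irgm1 at 5.47, and Gbp4 and Iigp1 were lowest at 1.19 and 1.17.

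In shielded LPS mice Gbp2 also led, at 101 CPM per kb, with none of its libraries under 80.5. Igtp at 47.1, Gbp5 at 41.3, Gbp3 at 40.2 and Gbp7 at 34.4 CPM per kb overlapped their neighbours in this order, and Irgm1 at 18.8, Irgm2 at 13.5, Gbp9 at 11.01, Iigp1 at 6.83 and Gbp4 at 4.71 followed, where only Irgm2 and Gbp9 overlapped. In shielded mice without LPS Igtp at 14.9 and Irgm2 at 13.5 CPM per kb led with overlapping libraries, Gbp3 followed at 10.01, and Gbp2 was at 6.30. Irgm2, at the top with Igtp without LPS, was thus the seventh of 10 with LPS in shielded mice. Per-kilobase levels rest on the union of annotated exons, which may be longer than the transcripts present.

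**Figure D4:**
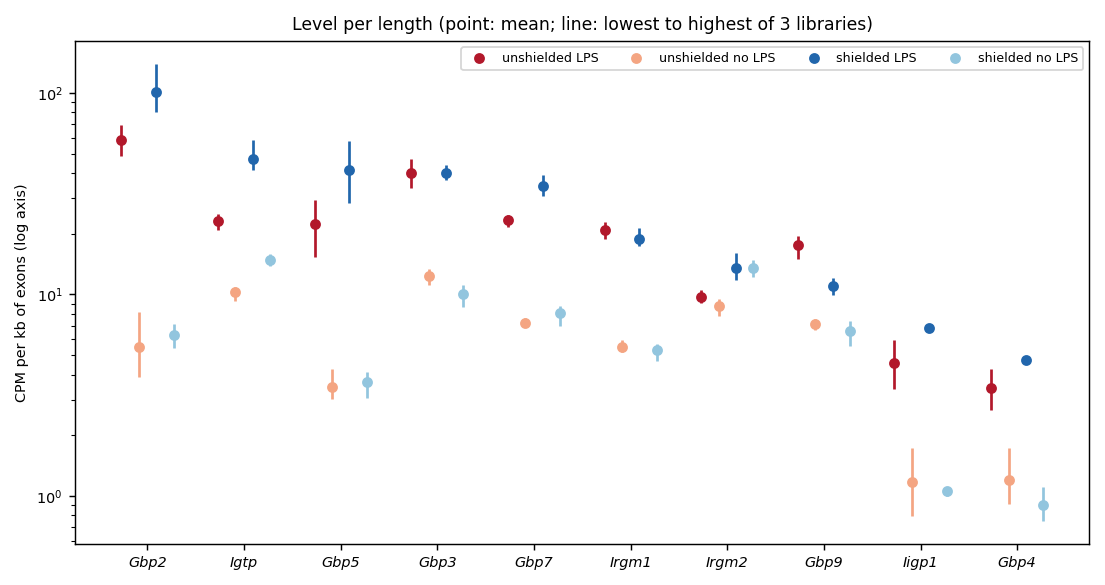
Level of each member per kilobase of annotated exons (log axis), as the mean and the lowest and highest of 3 libraries in each of the 4 groups, ordered by the shielded LPS group. Gbp2 is highest with LPS (58.5 CPM per kb in unshielded and 101 in shielded mice), while Gbp3 (12.3, unshielded) and Igtp (14.9, shielded) are highest without LPS.

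Together the members took 0.0748 to 0.0991% of counts in unshielded LPS libraries and 0.0252 to 0.0331% in unshielded libraries without LPS. In shielded mice their share was 0.0966 to 0.125% with LPS and 0.0282 to 0.032% without.

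A further 17 genes of the families were in the table, of which 15 passed the filter (Gbp2b and Irgc1 did not). With LPS, 8 rose and 1 fell in unshielded mice, and 10 rose and 3 fell in shielded mice. The shares of all genes tested were 24.3% higher and 18.8% lower in unshielded mice, and 32.4% and 35.1% in shielded mice. The GBPs Gbp6 and Gbp10, paralogues on chromosome 5, rose by 2.07 ± 0.35 and 2.22 ± 0.60 in unshielded mice and by 3.22 ± 0.37 and 2.86 ± 0.58 in shielded mice, but 70.7 and 84.1% of their exon windows occur in other genes. Gbp10 rested on 0 to 5 counts per library without LPS and 9 to 28 with LPS. The Gbp10 call in unshielded mice was lost without unshielded library 1 without LPS (adjusted p = 0.0502). Gbp11 went the other way in shielded mice, with 0.0904, 0.158 and 0.352 CPM with LPS against 0.431, 0.388 and 0.845 CPM without, a fall of −1.48 ± 0.45 (adjusted p = 0.0124) at a level of a few counts, lost without shielded LPS library 1 (0.0584) or shielded library 3 without LPS (0.0727). In unshielded mice it had 1.07, 0.780 and 1.03 CPM with LPS against 0.707, 0.626 and 0.721 CPM without (0.47 ± 0.35, adjusted p = 0.293).

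Among the effector IRGs, Gm12250 (Irgb10), which acts on bacterial membranes upstream of inflammasomes in the mouse, rose by 1.91 ± 0.14 in unshielded mice and 2.18 ± 0.14 in shielded mice. Tgtp1 and Tgtp2 (Irgb6) rose by 1.43 ± 0.30 and 1.89 ± 0.23 in unshielded mice and by 2.84 ± 0.30 and 2.16 ± 0.23 in shielded mice. Tgtp1 and Tgtp2 are near copies, with 81.2 and 86.6% of their exon windows in other genes, and reads can match both. Ifi47 (Irgd) had 50.8, 56.0 and 70.2 CPM in unshielded LPS libraries, against 13.0, 10.6 and 12.05 CPM without LPS. In shielded mice it had 21.4, 16.5 and 25.2 CPM with LPS, against 6.68, 4.23 and 3.88 CPM without. Ifi47 was higher in unshielded mice both after LPS (1.49 ± 0.20, adjusted p = 0.000134) and without it (1.27 ± 0.22, adjusted p = 0.00267), while its LPS effects of 2.31 ± 0.21 in unshielded and 2.09 ± 0.22 in shielded mice did not pass the test of their difference (0.22 ± 0.29, adjusted p = 0.632). The difference without LPS did not pass once both conflicting libraries were left out (0.83, adjusted p = 0.149).

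Gbp8, which overlaps Gbp9, was higher in unshielded mice after LPS (1.40 ± 0.30, adjusted p = 0.00237) and without it (1.72 ± 0.30, adjusted p = 0.0025), the second lost without the conflicting libraries (0.192). It did not pass the test with LPS in either kind of mouse (−0.27 ± 0.28 in unshielded and 0.05 ± 0.31 in shielded mice). Gm4951 and Gm4841, on chromosome 18 like Iigp1, were lower in unshielded mice after LPS, by −1.10 ± 0.18 (adjusted p = 0.000313) and −1.87 ± 0.33 (adjusted p = 0.000591). F830016B08Rik, on the same chromosome, was also lower there (−0.91 ± 0.29, adjusted p = 0.0235). With LPS it rose in shielded mice (1.53 ± 0.30, adjusted p = 0.00081) and did not pass in unshielded mice (0.80 ± 0.31, adjusted p = 0.0532). In all, 5 of the 15 were higher and 4 lower in unshielded mice after LPS, beside 19.1% and 25.6% of all genes. Without LPS 2 were higher and 1 lower, beside 3.98% and 6.85% of all genes. Gvin1, a very large inducible GTPase with 99.2% of its windows in other genes, rose by 1.32 ± 0.23 in unshielded and 1.28 ± 0.23 in shielded mice, and Irgq, an IRG-like gene, did not pass the test (−0.19 ± 0.12 in both).

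**Figure D5:**
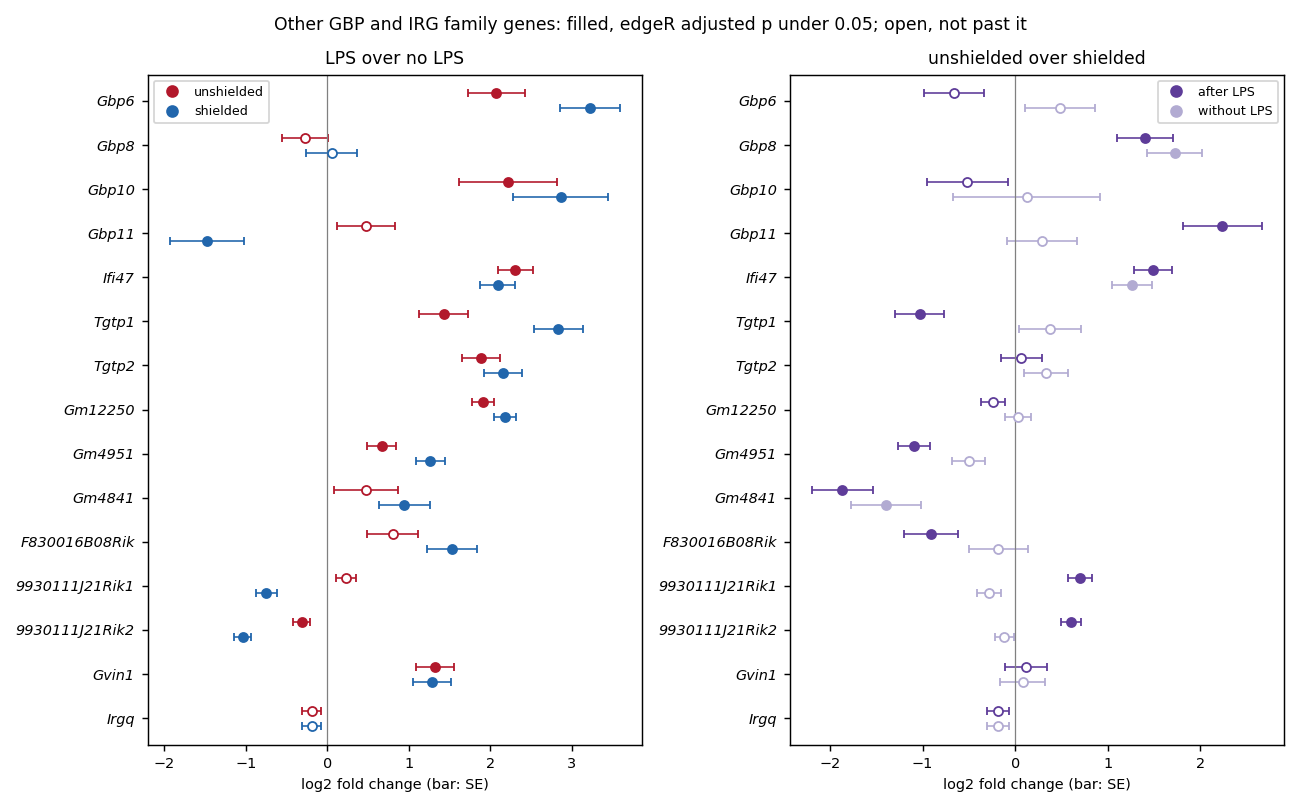
Log2 fold changes with SE of the 15 other GBP and IRG family genes, for LPS over no LPS (left: unshielded above shielded) and unshielded over shielded (right: after LPS above without LPS), filled where the test was passed. Ifi47 and Gbp8 have both points on the right filled and above 0, and Gbp11 has opposite signs on the left (0.47 and −1.48).

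The genes that carry the interferon signal were read beside the GTPases. Of 22 interferon signalling genes, 16 rose and 3 fell with LPS in unshielded mice, and 17 rose and 1 fell in shielded mice. Beside them, 24.3% of all genes tested were called higher and 18.8% lower in unshielded mice, and 32.4% and 35.1% in shielded mice. Stat2, a subunit of the ISGF3 complex that binds ISREs, rose by 2.02 ± 0.13 in unshielded and 1.88 ± 0.13 in shielded mice. Irf9, its DNA-binding partner, rose by 0.94 ± 0.09 in unshielded and 1.45 ± 0.09 in shielded mice. Irf1, a transcription factor induced by interferon, rose by 0.85 ± 0.13 in unshielded and 1.08 ± 0.13 in shielded mice. Ifnb1, the type I interferon, rose by 1.64 ± 0.41 in unshielded and 2.34 ± 0.36 in shielded mice, and was lower in unshielded mice after LPS (−1.24 ± 0.32, adjusted p = 0.00823). Ifng, the main inducer of both families, had 0.312 to 0.354 CPM in unshielded LPS mice, against 0.0481 to 0.0684 CPM without LPS. In shielded mice it had 0.317 to 0.754 CPM with LPS, against 0.0216 to 0.323 CPM without, so that these groups overlapped. These levels rest on 54 and 6 counts over the unshielded libraries with and without LPS, and on 47 and 12 over the shielded ones.

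In the opposite direction, Ciita, the master regulator of MHC class II, fell by 1.51 on the log2 scale in unshielded mice (−1.51 ± 0.18) and by 2.02 in shielded mice (−2.02 ± 0.20). After LPS, 7 of the 22 were lower in unshielded mice and 2 higher, beside 25.6% and 19.1% of all genes. Without LPS 1 was lower and 5 higher, beside 6.85% and 3.98% of all genes. Ptpn2, a phosphatase that switches off JAK kinase signalling, was lower after LPS (−0.95 ± 0.08, adjusted p = 6.46e-06), as was Ifngr2, a subunit of the interferon gamma receptor (−0.78 ± 0.10, adjusted p = 5.13e-05). In the test of the difference of LPS effects 13.3% of all genes were called in either direction. Of the 22, 6 were lower in unshielded mice and 0 higher. Among them Ptpn2 had −0.88 ± 0.12 (adjusted p = 0.00166) and Ifngr2 −0.69 ± 0.14 (adjusted p = 0.00726), and without the conflicting libraries, with 1 shielded library left without LPS, they were −0.78 (adjusted p = 0.0524) and −0.63 (adjusted p = 0.126).

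A list of 10 genes around caspase-11 held caspases, inflammasome sensors and their adaptor, cell lysis genes and cytokines. In unshielded mice 7 of the 10 rose with LPS and 1 fell, and in shielded mice 10 rose, of which Casp1 and Aim2 changed sign when scaled to library totals (−0.13 and −0.052). Casp4 rose by 2.10 ± 0.18 in unshielded and 2.27 ± 0.18 in shielded mice, and Zbp1, a nucleic acid sensor, by 3.06 ± 0.27 and 3.27 ± 0.27. Casp1 fell by 0.36 on the log2 scale in unshielded mice (−0.36 ± 0.09). Pycard, the inflammasome adaptor ASC, was lower in unshielded mice after LPS (−1.53 ± 0.12, adjusted p = 4.82e-06) and without LPS (−0.94 ± 0.12, adjusted p = 0.000472). After LPS, 6 of the 10 were lower in unshielded mice and 1 higher, beside 25.6% and 19.1% of all genes. For the LPS effects the shares of all genes were 24.3% higher and 18.8% lower in unshielded mice, and 32.4% higher in shielded mice.

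Prenylation anchors Gbp2 and Gbp5 in membranes. Of 6 prenylation genes 2 rose with LPS in unshielded mice and 5 in shielded mice, among them Zmpste24, a protease for prenylated proteins, by 0.53 ± 0.08 in unshielded and 0.92 ± 0.08 in shielded mice. Of all genes 24.3% were called higher with LPS in unshielded mice, near the prenylation count there, and 32.4% in shielded mice. After LPS 5 of the 6 were lower in unshielded mice, beside 25.6% of all genes. Among them was Fnta, the shared subunit of the prenyl transferases (−0.67 ± 0.09, adjusted p = 7.24e-05). Of 13 genes of autophagy conjugation, which the loading of GBPs and IRGs onto vacuoles needs in the mouse, 6 rose and 1 fell with LPS in unshielded mice (Map1lc3b, among the rises, was at −0.048 when scaled to library totals), and 6 rose and 4 fell in shielded mice. Over all genes 24.3% were called higher and 18.8% lower in unshielded mice, and 32.4% and 35.1% in shielded mice. With both directions pooled, the counts are near the shares over all genes (43.1% called in unshielded and 67.5% in shielded mice). Atg3 rose by 0.66 ± 0.09 in unshielded and 1.02 ± 0.09 in shielded mice, and Gabarapl1 had −0.57 ± 0.09 and −0.62 ± 0.09, both called lower. Atg5 was lower in unshielded mice after LPS (−0.76 ± 0.10, adjusted p = 8.65e-05), as were 4 of the 13 in all, with 2 higher, near the 25.6% and 19.1% of all genes.

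Outside the families, the genes whose levels most resembled the members' mean over the 12 libraries were Trim30a, Ifi35, Naa25, Slfn8 and Trim30d. Likeness is the root mean square difference, in log2 units, between a gene's log2 CPM centred on its own mean and the members' mean centred likewise. It was 0.109 for Trim30a, 0.133 for Ifi35, 0.137 for Naa25, 0.149 for Slfn8 and 0.150 for Trim30d. The members themselves lay between 0.138 for Gbp7 and 0.956 for Irgm2, with Gbp2 at 0.929. Trim30a had a mean of 274 CPM in unshielded LPS mice and 77.4 CPM in unshielded mice without LPS, and of 349 CPM in shielded LPS mice and 75.7 CPM in shielded mice without LPS.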

How the data were processed

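RNA-seq libraries came from CD11b-bead-sorted brain cells of 12 samples, grouped by title into 4 groups of 3. Per the labels' protocols, total RNA was linearly amplified, so amplification differences are part of the spread. The submitters' processing notes name FastQC, STAR, HTSeq and build mm9. Tool versions, annotation and strand setting: not given in the sources used here. Raw read counts per Ensembl gene make up the deposited table, per the file headers and values. No row totals under 2 counts, and 254 identifiers had no symbol.

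Tests used edgeR 4.0.16 in R 4.3.3 (robust quasi-likelihood, TMM, filterByExpr with a minimum count of 10 and total of 15, two-sided, Benjamini-Hochberg over 18875 genes, calls under 0.05), with the 4 groups fitted jointly. The SE is the absolute log2 fold change over the square root of F. CPM are TMM-scaled, and a prior count of 2 entered log2 CPM. The test was checked on simulated counts. DESeq2 1.42.0, other scalings, no filter, each comparison's own groups, the replicate block, leaving out each library, and the conflicting libraries left out or grouped by field were alternatives. The labels do not say that a group's samples are different animals. The p-values then measure only how these samples vary, which may be technical. Libraries of a group were not copies (chi-square per degree of freedom at least 11.2).

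Replicate numbers come from the titles. Deviations of same-numbered shielded libraries with and without LPS correlated at 0.112, 0.194 and 0.547 across 18875 genes. Shielded LPS library 1 and shielded library 2 without LPS, which differ in number, correlated at 0.399. The other shielded pairs that differ in number were negative, from −0.483 to −0.0138. The numbers therefore do not settle which libraries are paired, and the main fit has no block. In the other comparisons at least 1 same-numbered pair was under 0.1.

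The members and lists were chosen with earlier results of these data known. The most alike genes were sought among those whose log2 CPM averaged 3 or more and whose symbol was neither predicted nor unnamed. Named are all members, all other family genes tested and the 5 most alike genes. From each pathway list up to 2 called genes per direction with the smallest p in each comparison were taken. Some were left out for length. Irf1, Ifnb1 and Ifng were added after their values were seen, for their known roles. Exon lengths, shared exons and shared 50-base windows are from GENCODE M21 (GRCm38), and promoters from RefSeq. GRCm38 is not the mm9 build that the submitters' notes name. The annotation behind the counts is not given and may differ from GENCODE M21. The files' coordinates were not used.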

Additional observations from a re-analysis of the deposited data

Results flagged for a closer look

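In 4 of the other family genes the LPS effect differed between unshielded and shielded mice in the test of the difference (unshielded minus shielded, log2, edgeR). Of all genes tested 13.3% were called in that test. Gbp11 had 1.95 ± 0.58 (adjusted p = 0.0431), with 0.0904 to 0.352 CPM in shielded LPS libraries, and lost the call without any of 9 single libraries, at 1.45 (adjusted p = 0.125) without shielded library 3 without LPS. Tgtp1 had −1.41 ± 0.43 (adjusted p = 0.0481), and lost the call without any of 10 single libraries, at −1.20 (adjusted p = 0.0619) without unshielded LPS library 2. Its near copy Tgtp2 did not pass (−0.27 ± 0.32, adjusted p = 0.59). The unnamed family genes 9930111J21Rik1 and 9930111J21Rik2 had 0.98 ± 0.18 (adjusted p = 0.00539) and 0.72 ± 0.15 (adjusted p = 0.00836), and without the 2 conflicting libraries neither passed (1.004, adjusted p = 0.0657, and 0.79, adjusted p = 0.0539). They share most of their exon windows with each other, and in both the shielded LPS libraries were the lowest of the 4 groups.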

How the results depend on the processing

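Under median-of-ratios scaling, library totals, no filter, DESeq2, fits of the groups compared, the replicate block and without the conflicting libraries, 9 members were called higher with LPS in both kinds of mice. Leaving out single libraries gave 9 to 9 members and 6219 to 9442 genes in unshielded mice, 9 to 9 members and 10725 to 13697 genes in shielded mice, 1 to 2 members and 1094 to 2353 genes for unshielded against shielded without LPS, 4 to 8 members and 6362 to 11101 genes after LPS, and 0 to 3 members and 1615 to 6391 genes for the difference of LPS effects. Without the 2 conflicting libraries 8369 genes were called in shielded mice (12738 with them), 292 without LPS (2043) and 148 for the difference (2512), and 0 members without LPS. Grouped by their treatment field, these libraries left 117 of 8128 genes and 0 members called in unshielded mice, 0 genes and 0 members in shielded mice, 0 and 0 without LPS, 1464 of 8423 genes and 2 members after LPS and 0 genes for the difference. In that grouping 4 of the 5 most alike genes changed sign after LPS (Trim30a 0.15, Ifi35 0.18, Naa25 0.0038 and Slfn8 0.0082), as did Ciita (−0.10). The fit with no filter called 1571 genes and 1 member for the difference of LPS effects (Gbp9, 0.64, adjusted p = 0.0189), and library totals 1 (Gbp9, 0.60, adjusted p = 0.0181).

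With library totals, signs changed in unshielded mice for Gabarapl2 (−0.22) and Map1lc3b (−0.048), and in shielded mice for Irgm2 (−0.35), Aim2 (−0.052), Atg7 (−0.20), Casp1 (−0.13), Gabarapl2 (−0.31) and Ifnar1 (−0.23). The replicate block in a fit of the groups compared called 3405 genes without LPS, against 2750 in that fit with no block, and in a fit of all libraries 2 members for the difference (Gbp4, −0.84, adjusted p = 0.0329, and Gbp9, 0.55, adjusted p = 0.0221). After LPS, against the fit of the same groups with no block (Gbp2 0.0475, Gbp5 0.0762, Iigp1 0.0846), the block lost Gbp2 (0.0807), left Gbp5 not called (0.131) and gained Iigp1 (−0.57, adjusted p = 0.0397), and it changed no other member's call. The cause of these changes was not tested.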
